A study of Homo sapiens with 12 samples.

Results

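The DNA replication factors are 48 human genes listed by name for their function, with earlier results of these data known, that serve the steps from the marking of replication origins to the packing of new DNA behind the fork. Messenger RNA was sequenced in U87 cells, a long established glioblastoma line of human origin also written U-87 MG, kept under hypoxia with 1% O2. The 4 groups of 3 libraries were the empty vector group (vector), the knockout of HIF1α (HIF1α-ko), the knockout of HIF2α (HIF2α-ko) and the dual knockout (HIF1α/2α-ko), so every group, the control included, was hypoxic and no library shows these genes under normal oxygen. The record of the sequencing gives 72 h of hypoxia, whereas the methods of the study give a shorter time for mRNA detection in general. There the longer time belongs to other assays, whose cells also received temozolomide. The sample labels name no temozolomide, and whether these cells received it is not stated. How the knockouts were made, whether each line was 1 clone and whether the 3 libraries of a group were separate cultures are not given in the sources used here, so the p-values measure only the spread between these libraries, which may be technical.

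All 48 members were found among the 20263 genes of the table the authors deposited, whose unit is TPM, a share of all transcripts that takes gene length into account. Of these, 43 reached 1 TPM in 3 or more libraries and were tested with the 11731 genes that did so, and GINS1, GINS4, MCM10, POLA1 and POLE2 did not. TPM keeps no read depth, so no counting error can be given and a value of 0 is only a gene listed at 0. Each difference is a log2 fold change of TPM + 1 with its standard error, and every adjusted p comes from limma with Benjamini-Hochberg adjustment over all 11731 genes, at a threshold of 0.05. The pseudocount of 1 makes the fold changes of low genes smaller than the change of their TPM. The fit of all libraries in 1 model, without further scaling or a term for the replicate number, is called the main fit.

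Each target was lower in its own knockout, since HIF1A averaged 124 ± 23.5 TPM (SD, n = 3) in vector and 48.5 ± 9.35 TPM in HIF1α-ko, and EPAS1, the gene of HIF2α, 322 ± 31.5 TPM in vector and 107 ± 17.0 TPM in HIF2α-ko. In the dual knockout EPAS1 averaged 117 ± 14.4 TPM and HIF1A 75.5 ± 11.9 TPM, the latter higher than in HIF1α-ko (log2 fold change 0.64 ± 0.20, adjusted p = 0.0287) and not different by the test from HIF2α-ko at 86.8 ± 18.1 TPM (−0.19 ± 0.20, adjusted p = 0.453). A knockout need not remove the RNA of its gene, and no protein level is given by these data. VIM lay between 5635 and 14690 TPM, CD44 between 399 and 1412 TPM and TNC between 676 and 902 TPM, GFAP at 0.639 TPM or less and PTPRC at 0.0330 TPM or less, while CDKN2A and CDKN2B, at a locus that U-87 MG is known to lack, were listed at 0 in all 12 libraries. Replicate 1 stood apart from replicates 2 and 3 in every group, with the lowest values in vector. There Pearson's r across genes was 0.968 and 0.966 with replicates 2 and 3, beside 0.989 between them. The same values were 0.9755 and 0.9771 beside 0.992 in the dual knockout, and 0.982 and 0.983 beside 0.991 in HIF1α-ko. In HIF2α-ko they were 0.985 and 0.985 beside 0.992. Several members differed with vector replicate 1, as given with each result.

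In a cell that prepares to divide, the origin recognition complex marks origins, CDC6 and CDT1 load the ring of MCM2 to MCM7 on them, and geminin, the product of GMNN, blocks CDT1 so that no origin is loaded again in S phase. CDC45 and the GINS complex turn the loaded ring into a working helicase, primase and polymerase alpha start each strand, polymerases delta and epsilon extend it on the PCNA clamp, and ribonucleotide reductase, thymidylate synthase and thymidine kinase supply the nucleotides. Many of these genes are transcribed around S phase entry through E2F factors, so that their RNA in bulk follows the share of cells in S phase. A smaller or larger share of cycling cells and a change of RNA in each cell cannot be told apart in bulk samples. By flow cytometry the study reported more dual knockout cells in G2/M + S under hypoxia. It also reported that they proliferated more without temozolomide, while changes after either single knockout were not clear. The cell cycle was not measured in these libraries, and its bearing on the RNA was not tested.

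Replicate 1 held the highest value of its group in all 4 groups for 12 of the 43 tested members, 27.9%, beside 6.06% of all genes tested. Replicates 2 and 3 did so for 0 members each, beside 1.47% and 1.48% of all genes tested. The 12 were ORC1, ORC6, MCM3, MCM4, MCM5, CDC45, POLD1, LIG1, RRM2, TYMS, TK1 and CHAF1B, and in the 3 knockout groups alone the count was 19 members, 44.2% beside 11.1%. Within single groups replicate 1 was highest for 62.8% of the members in vector and in HIF1α-ko, for 69.8% of them in HIF2α-ko and for 51.2% in the dual knockout, where all genes tested gave 45.8%, 27.6%, 27.2% and 25.5%. The summed TPM of the members was 816, 672, 823 and 658 in replicate 1 of vector, HIF1α-ko, HIF2α-ko and the dual knockout, and 494 to 735 in replicates 2 and 3. What a replicate number marks is not given in the sources used here, and the comparisons were also fitted without replicate 1 and with the replicate number as a block.

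**Figure D1:**
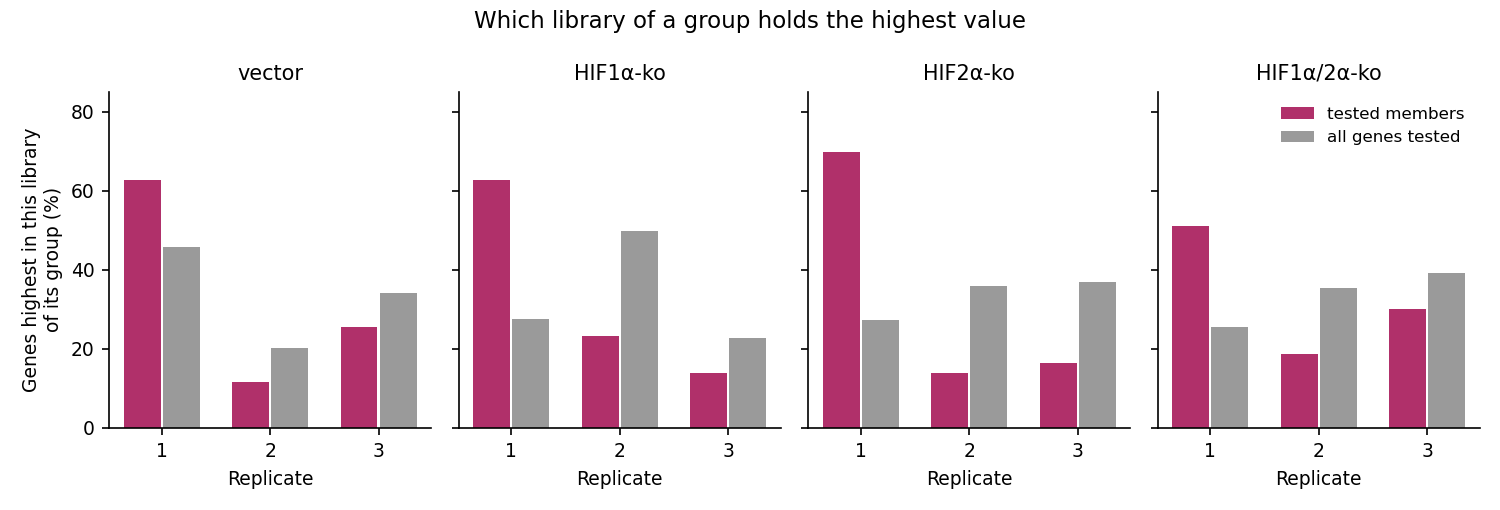
Share of genes, in percent, whose highest TPM within a group of 3 lies in replicate 1, 2 or 3, with 1 panel for each group, for the 43 tested members and for all 11731 genes tested. Replicate 1 holds the highest value for 51.2% to 69.8% of the members and for 25.5% to 45.8% of all genes.

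In the dual knockout, 13 of the 43 tested members fell against vector, 4 rose and 26 did not pass the threshold. The 13 that fell were 30.2% of the tested members, beside 14.8% of all genes tested, and the 4 that rose were 9.3%, beside 31.8%. The 4 nucleotide supply genes RRM1, RRM2, TYMS and TK1 all fell, together with GMNN and CDT1 of licensing, ORC1, MCM2, the primase subunits PRIM1 and PRIM2, and the clamp loader subunits RFC1, RFC2 and RFC5. MCM6, MCM7, ORC5 and RFC4 rose, so the fall was not shared by all subunits of a complex. The median log2 fold change of the tested members was −0.16, beside 0.21 for all genes tested.

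In HIF1α-ko, 6 members fell (ORC1, PRIM1, RFC2, RFC5, RRM2 and TYMS) and MCM6 rose, which were 14% and 2.33% of the tested members beside 8.77% and 17.3% of all genes tested. In HIF2α-ko, 2 members fell (PRIM1 and RFC5), 4.65% beside a background of 5.89%, and limma called 0 higher, beside 5.07%, with 0 also at an unadjusted p under 0.05. The share that fell in HIF2α-ko was thus no larger than among all genes. The median log2 fold change of the members was −0.20 in HIF1α-ko and −0.23 in HIF2α-ko, beside 0.18 and −0.04 for all genes tested. The 3 comparisons share the vector libraries and are not independent of each other.

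**Figure D2:**
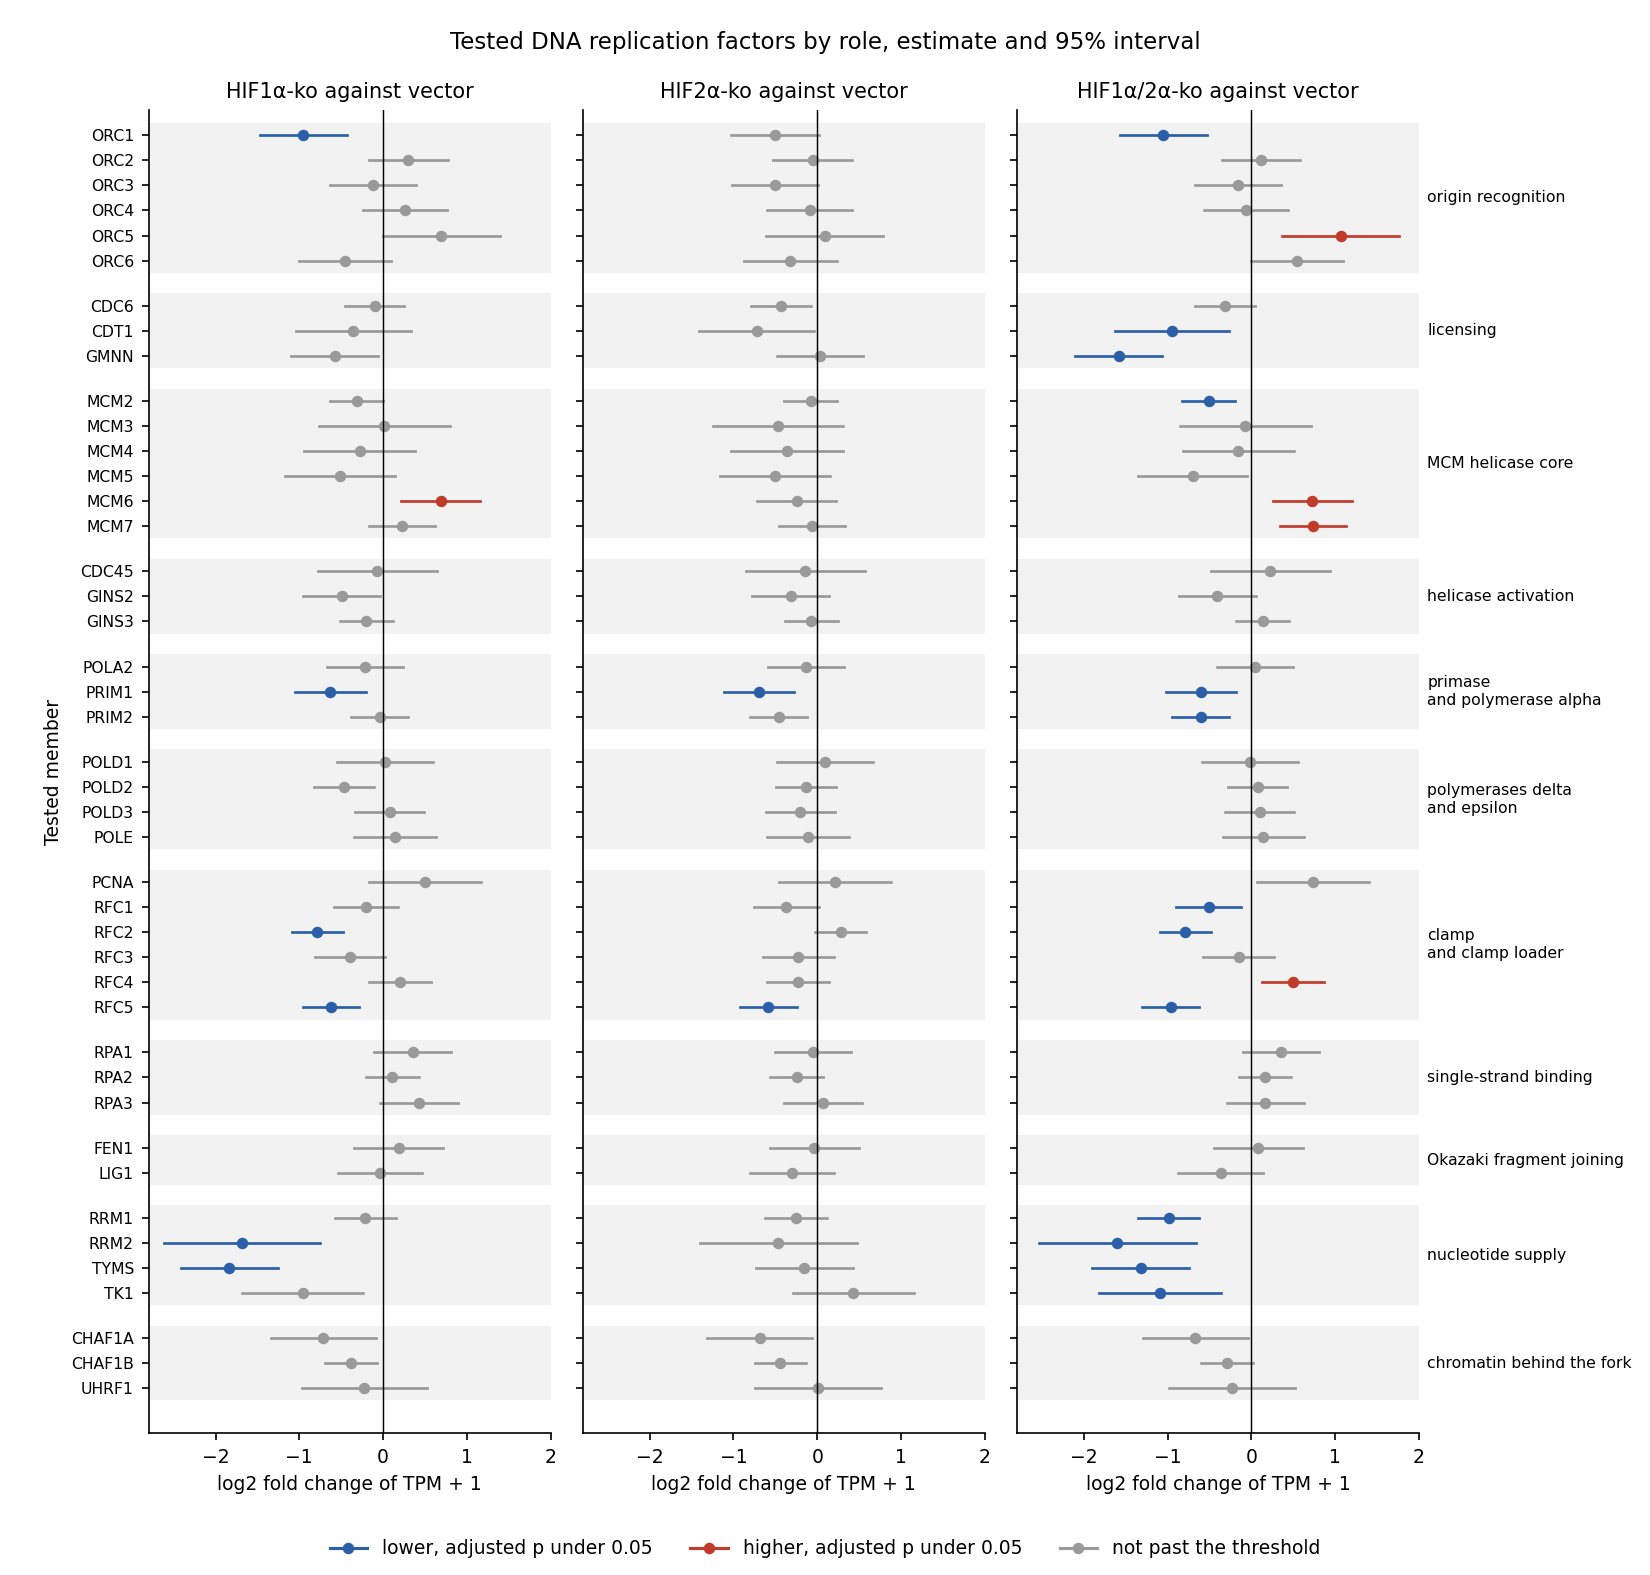
Log2 fold change of TPM + 1 against vector for the 43 tested members in HIF1α-ko, HIF2α-ko and the dual knockout, grouped by role, with a point for the estimate and a line for its 95% interval from limma. Blue marks a fall and red a rise past the adjusted threshold, and the right panel holds 13 blue and 4 red points, with all 4 nucleotide supply genes in blue.

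These counts moved with the scaling and with the libraries. Median ratio scaling lowered the median of all genes in the dual knockout by 0.21 on the log2 scale and turned the 13 that fell and 4 that rose into 17 and 2, as quantile normalization did with a shift of −0.22, which raised the share of falls among the calls from 76.5% to 89.5%. Over all genes tested the same scalings raised it from 31.8% to 49.4% and 50.2%, so the shift was a general one. In HIF1α-ko the falls became 10 and 11 under these scalings, and the 2 falls of HIF2α-ko became 0. Without replicate 1 of every group, an alternative chosen after seeing the data, 16 fell and 10 rose in the dual knockout, 14 and 7 in HIF1α-ko, and 11 and 2 in HIF2α-ko. In shares these were 37.2% and 23.3%, 32.6% and 16.3%, and 25.6% and 4.65% of the tested members, beside 19% and 45.3%, 15.9% and 39.2%, and 16% and 20.5% of all genes in the same fit. Leaving out single libraries, the falls of HIF1α-ko dropped to 2 without HIF1α-ko replicate 2 or 3, and the rises of the dual knockout to 1 when vector replicate 2 was left out and to 2 for vector replicate 3 or dual knockout replicate 2 or 3. The falls of HIF2α-ko dropped to 0 when the library left out was replicate 2 or 3 of vector, replicate 2 or 3 of HIF2α-ko, or dual knockout replicate 3. Of the 50 calls of a member in 1 of 7 comparisons, 23 held under every alternative, 27 were lost under at least 1 and 0 reversed. Of the 251 pairs not called, 91 were called under at least 1 alternative, so a member that did not pass is not shown to be unaffected.

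Of the origin recognition complex, 1 of 6 subunits fell and 1 rose in the dual knockout. ORC1 (ENSG00000085840, chr1:52372829-52404459, minus strand, GRCh38), the large ATP-binding subunit, had 3.93, 3.62 and 3.75 TPM in the vector libraries, 2.65, 1.06 and 0.993 TPM in HIF1α-ko, 3.03, 1.84 and 2.31 TPM in HIF2α-ko, and 1.92, 1.00 and 1.08 TPM in the dual knockout. All 9 knockout libraries lay under the 3 vector libraries. The fall was −0.95 ± 0.24 in HIF1α-ko (adjusted p = 0.0136) and −1.05 ± 0.24 in the dual knockout (adjusted p = 0.00344), and in HIF2α-ko the difference of −0.50 ± 0.24 did not pass the threshold (adjusted p = 0.200). The call in HIF1α-ko was lost without HIF1α-ko replicate 2 or 3 (adjusted p = 0.0612 and 0.0666).

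ORC5 (ENSG00000164815, chr7:104126341-104208047, minus strand) moved the other way, with 1.14, 0.0890 and 1.09 TPM in vector and 1.26, 3.09 and 3.85 TPM in the dual knockout, and with 1.20, 1.63 and 2.59 TPM in HIF1α-ko and 0.548, 0.724 and 1.20 TPM in HIF2α-ko. The dual knockout libraries lay above the vector libraries (1.07 ± 0.32, adjusted p = 0.0165), but vector replicate 2 was close to 0, and without it the difference was 0.75 (adjusted p = 0.0772). That call was also lost without dual knockout replicate 2 or 3 (adjusted p = 0.0592 and 0.0748). ORC2, ORC3 and ORC4 passed the threshold in none of the 7 comparisons of the main fit, and ORC2 and ORC3 passed in some under alternatives. Their libraries ranged from 1.21 TPM in ORC4 to 7.41 TPM in ORC3.

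ORC6 (ENSG00000091651, chr16:46689643-46698394, plus strand), the smallest subunit, did not pass the threshold against vector in any knockout but was higher in the dual knockout than in each single knockout. It had 4.32, 2.87 and 3.11 TPM in vector, 2.85, 1.70 and 2.16 TPM in HIF1α-ko, 3.54, 2.54 and 1.72 TPM in HIF2α-ko, and 7.05, 6.14 and 3.54 TPM in the dual knockout. The dual knockout libraries did not overlap those of HIF1α-ko (1.00 ± 0.25, adjusted p = 0.0118). They met those of HIF2α-ko only at their edges, at 3.54 TPM in dual knockout replicate 3 and in HIF2α-ko replicate 1 (0.86 ± 0.25, adjusted p = 0.0150), a call lost under median ratio scaling and quantile normalization (adjusted p = 0.0895 and 0.161) and without HIF2α-ko replicate 3 or dual knockout replicate 2 (adjusted p = 0.0694 and 0.0559). The interaction term, which is the change in the dual knockout less the sum of the changes in both single knockouts, was 1.32 ± 0.36 (adjusted p = 0.0234), and it was lost under quantile normalization and when HIF1α-ko replicate 2 or 3, HIF2α-ko replicate 3 or dual knockout replicate 2 was left out (adjusted p = 0.0526 to 0.0602).

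Of the 3 licensing genes, CDT1 and GMNN fell in the dual knockout and CDC6 did not pass the threshold in any comparison of the main fit. GMNN (ENSG00000112312, chr6:24774931-24786099, plus strand), the inhibitor of CDT1, had 9.82, 10.1 and 11.9 TPM in vector, 6.39, 7.20 and 6.63 TPM in HIF1α-ko, 7.18, 11.4 and 15.2 TPM in HIF2α-ko, and 2.00, 3.05 and 3.68 TPM in the dual knockout. The highest dual knockout library lay below the lowest library of every other group. The fall of −1.59 ± 0.24 against vector (adjusted p = 0.000197), a fold of 0.333 on the TPM + 1 scale, was accompanied by lower levels than in HIF1α-ko (−1.01 ± 0.24, adjusted p = 0.00786) and HIF2α-ko (−1.62 ± 0.24, adjusted p = 0.000177), and these 3 calls held under every alternative. The interaction term of −1.04 ± 0.34 had an adjusted p of 0.0455 and was lost under 11 alternatives, with an adjusted p of up to 0.106 without HIF2α-ko replicate 3.

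CDT1 (ENSG00000167513, chr16:88803213-88809258, plus strand), the loading factor that geminin inhibits, had 21.6, 22 and 21.2 TPM in vector, 24.5, 14.1 and 13.3 TPM in HIF1α-ko, 20.9, 9.27 and 10.4 TPM in HIF2α-ko, and 16.1, 8.0 and 9.39 TPM in the dual knockout. In each knockout group replicate 1 was the highest library. CDT1 fell by 0.95 ± 0.31 on the log2 scale in the dual knockout (adjusted p = 0.0254), a call lost without any 1 vector library or without dual knockout replicate 2 or 3 (adjusted p = 0.0524 to 0.103). Without replicate 1 of every group it had a log2 fold change of −0.62 for HIF1α-ko, −1.06 for HIF2α-ko and −1.22 for the dual knockout, all past the threshold. CDC6, which loads the ring together with CDT1, had 0.724 to 1.94 TPM over the 12 libraries.

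The promoters of these genes are shown for what they hold of some of the letters that E2F factors are known to read, TTTGGCGC, TTTCCCGC, TTTCGCGC or TTTGCCGC on either strand. Other forms of the site were not searched, so a promoter without a match can still hold one. A match is in capitals, and sequences are from RefSeq on GRCh38.p14, 5′ to 3′ on the strand of the gene. Promoters are placed on the RefSeq start, which can differ from the outer end of the GENCODE gene given as its position. Among the promoters shown it lay 576 bases downstream of that end for CDT1, 543 for MCM7, 188 for MCM2, 49 for TYMS and 6 for GMNN. All 250 bases before the RefSeq start of CDT1 and of MCM7 lie in exons of GENCODE transcripts on the same strand. Of these bases 188 do so for MCM2, 49 for TYMS and 6 for GMNN. The CDT1 promoter holds 1 match, 35 bases before the RefSeq start, at chr16:88803743-88803772 on the plus strand, and the 250 bases before the RefSeq start of GMNN, at chr6:24774687-24774936 on the plus strand, hold none.
CDT1: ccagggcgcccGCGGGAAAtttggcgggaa
GMNN: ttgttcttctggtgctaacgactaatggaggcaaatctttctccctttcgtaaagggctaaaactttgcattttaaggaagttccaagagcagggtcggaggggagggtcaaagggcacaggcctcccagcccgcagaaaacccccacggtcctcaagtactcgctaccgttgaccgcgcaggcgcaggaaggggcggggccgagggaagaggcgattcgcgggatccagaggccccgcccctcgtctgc

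In the MCM ring, MCM2 fell and MCM6 and MCM7 rose in the dual knockout. MCM3, MCM4 and MCM5 passed the threshold in no comparison of the main fit. MCM2 (ENSG00000073111, chr3:127598223-127622436, plus strand) had 26.3, 31.0 and 32.0 TPM in vector, 26.7, 22.9 and 21.6 TPM in HIF1α-ko, 32.3, 25.2 and 26.8 TPM in HIF2α-ko, and 21.6, 18.9 and 21.0 TPM in the dual knockout. The dual knockout libraries lay under all vector and HIF2α-ko libraries. The fall was −0.51 ± 0.14 against vector (adjusted p = 0.0119, and 0.0515 without dual knockout replicate 2) and −0.43 ± 0.14 against HIF2α-ko (adjusted p = 0.0283, lost without HIF2α-ko replicate 1 or 3 or dual knockout replicate 2 or 3).

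MCM7 (ENSG00000166508, chr7:100092728-100101940, minus strand) had 19.1, 14.1 and 12.9 TPM in vector, 20.0, 16.8 and 17.1 TPM in HIF1α-ko, 18.3, 12.1 and 13.6 TPM in HIF2α-ko, and 25.6, 27.5 and 24.7 TPM in the dual knockout. All 3 dual knockout libraries lay above the other 9. The rise was 0.74 ± 0.18 against vector (adjusted p = 0.00528) and 0.80 ± 0.18 against HIF2α-ko (adjusted p = 0.00333). Under median ratio scaling and quantile normalization, which shift the median of all genes down, the rise against vector was 0.50 and 0.45 and did not pass the threshold (adjusted p = 0.0606 and 0.0794), nor did the rise against HIF2α-ko (adjusted p = 0.0577 and 0.0622).

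MCM6 (ENSG00000076003, chr2:135839626-135876426, minus strand) was high in the groups with the HIF1α knockout, with 3.72, 4.58 and 5.54 TPM in HIF1α-ko and 3.39, 5.44 and 5.60 TPM in the dual knockout, beside 3.48, 1.91 and 2.15 TPM in vector and 1.63, 1.98 and 2.14 TPM in HIF2α-ko. It was higher than vector in HIF1α-ko (0.69 ± 0.22, adjusted p = 0.0359) and in the dual knockout (0.73 ± 0.22, adjusted p = 0.0156), where dual knockout replicate 1 lay below vector replicate 1. Both calls were lost when only the 2 groups were fitted and without vector replicate 2 or 3 (adjusted p = 0.0533 to 0.129), and without replicate 2 or 3 of the knockout compared (adjusted p = 0.0625 to 0.138). The call in HIF1α-ko was also lost without a filter (adjusted p = 0.0603) and without HIF2α-ko replicate 2 (adjusted p = 0.0514). Against HIF2α-ko, no libraries overlapped, and MCM6 was 0.94 ± 0.22 higher in HIF1α-ko (adjusted p = 0.00927) and 0.97 ± 0.22 higher in the dual knockout (adjusted p = 0.00309), under every alternative that kept the gene.

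The 250 bases before the RefSeq start of MCM6, at chr2:135876444-135876693 on the minus strand, hold 2 copies of a run of 12 letters in which a match on each strand overlaps. MCM2 holds an overlapping pair of matches just after its RefSeq start, at chr3:127598404-127598433 on the plus strand, and MCM7 has 2 separate matches, at chr7:100101566-100101595 and chr7:100101388-100101417 on the minus strand. Whether these letters bear on the direction of change of MCM2, MCM6 or MCM7 was not tested.
MCM6: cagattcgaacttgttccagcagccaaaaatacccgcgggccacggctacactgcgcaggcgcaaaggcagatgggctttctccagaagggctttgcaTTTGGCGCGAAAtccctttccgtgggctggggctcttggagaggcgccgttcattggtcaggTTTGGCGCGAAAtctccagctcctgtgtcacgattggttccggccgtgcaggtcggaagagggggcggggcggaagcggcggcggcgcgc
MCM2: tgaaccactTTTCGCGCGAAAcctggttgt
MCM7, far match: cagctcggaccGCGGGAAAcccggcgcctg
MCM7, near match: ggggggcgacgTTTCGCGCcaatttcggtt

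**Figure D3:**
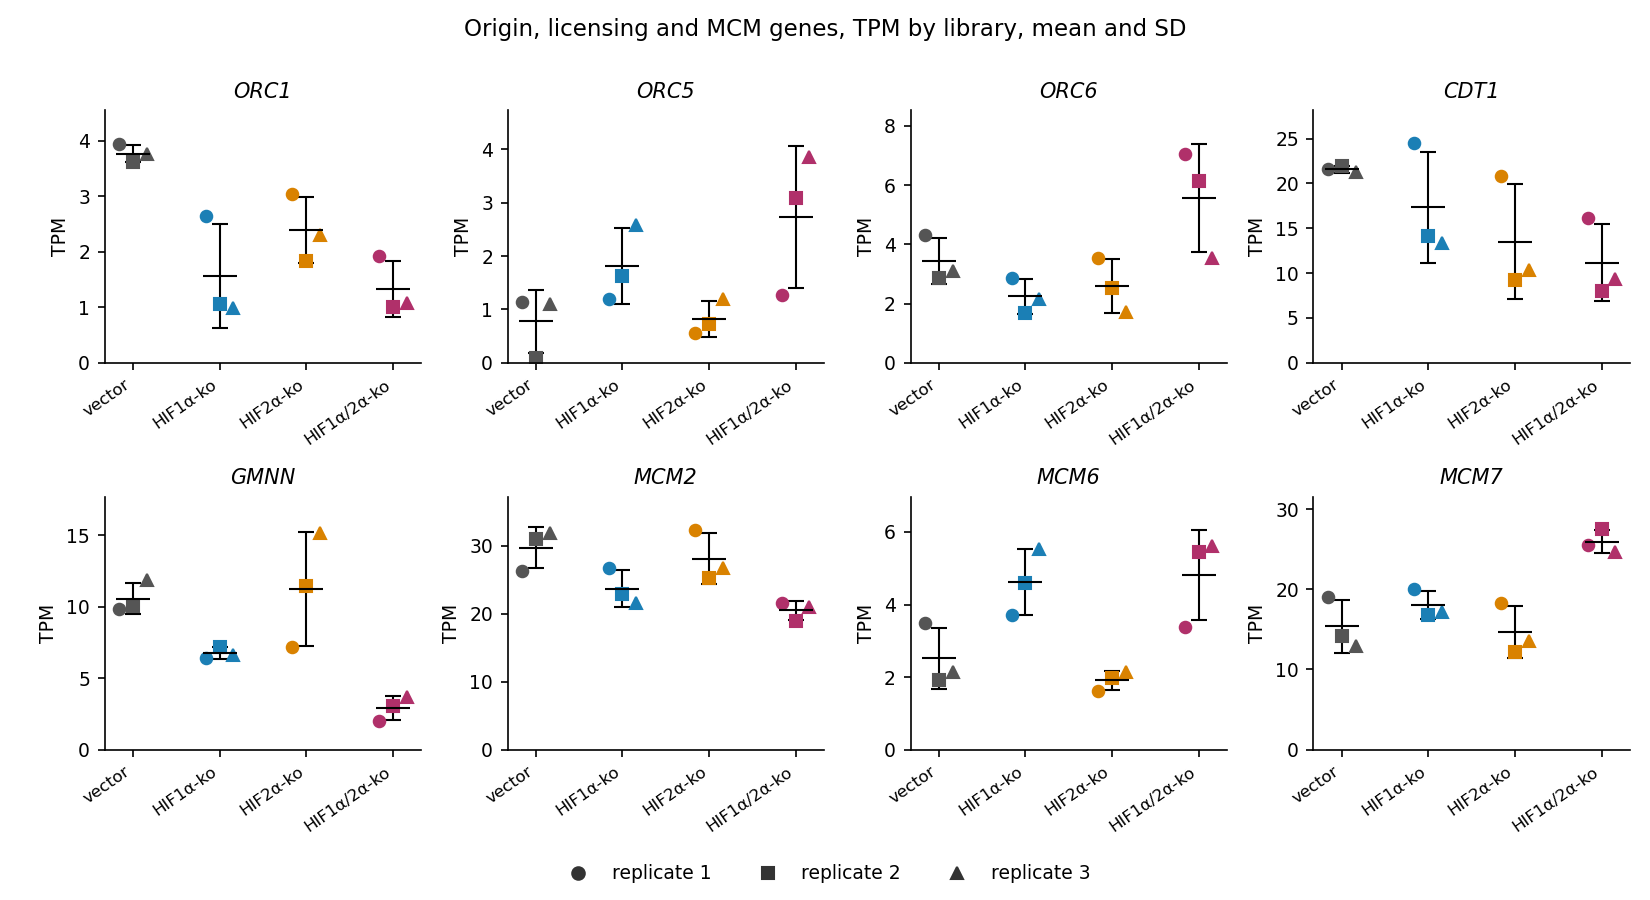
TPM of ORC1, ORC5, ORC6, CDT1, GMNN, MCM2, MCM6 and MCM7 in the 12 libraries, with 1 marker shape for each replicate number and a bar with whiskers for the mean and SD of each group of 3. GMNN is lowest in the dual knockout, where its libraries lie at 2.00 to 3.68 TPM, and MCM7 is highest there, at 24.7 to 27.5 TPM.

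In the 3 other ring subunits replicate 1 was high. MCM3 had 12.4 TPM in vector replicate 1 and 3.65 and 4.77 TPM in replicates 2 and 3, and MCM4 8.35 TPM beside 2.90 and 3.17 TPM. In both genes replicate 1 was the highest library in all 4 groups, as it was in MCM5, which had 12.3, 9.03 and 11.7 TPM in vector and 9.77, 4.79 and 5.32 TPM in the dual knockout. The log2 fold change of MCM5 in the dual knockout, −0.70 ± 0.30, did not pass the threshold (adjusted p = 0.0734). It passed under median ratio scaling and quantile normalization (−0.92 and −1.01, adjusted p = 0.0442 and 0.0366) and without dual knockout replicate 1 (−0.98, adjusted p = 0.0166). With replicate 1 of every group left out it passed too (−0.90, adjusted p = 0.00342). The replicate block gave an adjusted p of 0.00339, but that block treats vector as paired, which the values did not show.

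Helicase activation could be tested for 3 of its 6 genes, CDC45, GINS2 and GINS3. Of these, limma called 0 in any comparison of the main fit. At an unadjusted p under 0.05 GINS2 was lower in HIF1α-ko than in vector and GINS3 higher in the dual knockout than in HIF1α-ko. Among the alternatives, GINS3 passed in HIF1α-ko against vector under quantile normalization. Without replicate 1 of every group, GINS2 passed in HIF1α-ko and CDC45 in the dual knockout, both against vector. GINS3, a subunit of the GINS complex, ranged from 4.89 to 7.27 TPM. CDC45, the partner of GINS in the helicase, had 2.14, 0.577 and 0.467 TPM in vector, and replicate 1 was its highest library in all 4 groups. The other GINS subunits GINS1 and GINS4 and the activation factor MCM10 stayed low, with GINS1 at 1 TPM or more in 1 library only, GINS4 at 0.583 TPM or less and MCM10 at 0.164 TPM or less.

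Both primase subunits fell in the dual knockout. PRIM1 (ENSG00000198056, chr12:56731596-56752373, minus strand), the catalytic subunit, had 2.69, 3.28 and 4.97 TPM in vector, 2.35, 1.68 and 1.83 TPM in HIF1α-ko, 1.91, 1.90 and 1.61 TPM in HIF2α-ko, and 2.44, 1.57 and 2.02 TPM in the dual knockout. It fell in all 3 knockouts, with −0.63 ± 0.19 for HIF1α-ko, −0.70 ± 0.19 for HIF2α-ko and −0.61 ± 0.19 for the dual knockout (adjusted p = 0.0322, 0.0379 and 0.0214). The vector libraries spread widely, and without vector replicate 3 the adjusted p was 0.131, 0.159 and 0.0966. The 3 calls were also lost in a fit of the 2 groups only (adjusted p = 0.0754, 0.0915 and 0.0765) and without either of replicates 2 and 3 of the knockout compared (adjusted p = 0.0527 to 0.124), and the call in HIF2α-ko was lost under 12 alternatives in all.

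PRIM2 (ENSG00000146143, chr6:57314805-57646849, plus strand), the large primase subunit, had 7.97, 5.75 and 7.16 TPM in vector, 7.11, 6.80 and 6.17 TPM in HIF1α-ko, 4.51, 4.97 and 4.78 TPM in HIF2α-ko, and 3.61, 4.31 and 4.74 TPM in the dual knockout. All libraries with the HIF2α knockout lay under all libraries without it. The fall in the dual knockout, −0.60 ± 0.16 (adjusted p = 0.00740), held under every alternative, and the difference of −0.46 ± 0.16 in HIF2α-ko did not pass the threshold (adjusted p = 0.0828). PRIM2 was also lower in the dual knockout than in HIF1α-ko (−0.56 ± 0.16, adjusted p = 0.0183), a call lost without HIF1α-ko replicate 1 or 2 (adjusted p = 0.0580 and 0.0542). The polymerase alpha subunit POLA2 had 1.28 to 2.68 TPM and passed in no comparison of the main fit, and the catalytic subunit POLA1 stayed at 0.920 TPM or less.

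Of the polymerases that extend the strands, 0 of 4 tested subunits were called against vector in any knockout in the main fit. At an unadjusted p under 0.05 there was 1 (POLD2 in HIF1α-ko, lower, −0.46 ± 0.16, adjusted p = 0.0544). That difference passed the threshold under 6 alternatives, among them median ratio scaling, quantile normalization and leaving out replicate 1 of vector or of HIF1α-ko. POLD2 (ENSG00000106628, chr7:44114681-44124358, minus strand), an accessory subunit of polymerase delta, was the most abundant member, with 205, 247 and 223 TPM in vector, 214, 143 and 140 TPM in HIF1α-ko, 229, 195 and 189 TPM in HIF2α-ko, and 262, 215 and 233 TPM in the dual knockout. Its dual knockout libraries lay above its HIF1α-ko libraries (0.54 ± 0.16, adjusted p = 0.0275), and this call was lost under median ratio scaling (adjusted p = 0.120), in a fit of the 2 groups only (adjusted p = 0.0581) and without HIF1α-ko replicate 2 or 3 or dual knockout replicate 1 or 3 (adjusted p = 0.0675 to 0.111). POLD1, the catalytic subunit of polymerase delta, ranged from 6.52 to 13.8 TPM, the subunit POLD3 from 1.86 to 3.36 TPM and POLE, the catalytic subunit of polymerase epsilon, from 3.87 to 8.44 TPM, while the epsilon subunit POLE2 stayed at 0.226 TPM or less.

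Subunits of the clamp loader, the ring of RFC1 to RFC5 that opens PCNA, moved in both directions. RFC5 (ENSG00000111445, chr12:118013588-118033130, plus strand) had 32.0, 31.6 and 33.4 TPM in vector, 24.2, 19.1 and 19.0 TPM in HIF1α-ko, 24.8, 18.9 and 20.4 TPM in HIF2α-ko, and 18.7, 14.0 and 15.8 TPM in the dual knockout. All knockout libraries lay below the vector libraries, and those of the dual knockout below all others. The fall was −0.62 ± 0.16, −0.58 ± 0.16 and −0.96 ± 0.16 (adjusted p = 0.0134, 0.0333 and 0.000357), of which that in the dual knockout held under every alternative. The call in HIF1α-ko was lost without HIF1α-ko replicate 2 or 3 (adjusted p = 0.0566 and 0.0611), and that in HIF2α-ko under 8 alternatives, with an adjusted p of 0.103 under median ratio scaling, 0.0961 under quantile normalization and up to 0.133 without HIF2α-ko replicate 2.

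RFC2 (ENSG00000049541, chr7:74231499-74254458, minus strand) was low in both groups with the HIF1α knockout, with 16.3, 16.5 and 16.2 TPM in HIF1α-ko and 18.3, 15.3 and 15.2 TPM in the dual knockout, beside 25.5, 30.5 and 30.8 TPM in vector and 39.0, 36.1 and 30.8 TPM in HIF2α-ko. No library of the first pair of groups overlapped one of the second pair. RFC2 fell by −0.78 ± 0.14 in HIF1α-ko (adjusted p = 0.00255) and −0.79 ± 0.14 in the dual knockout (adjusted p = 0.000655), and both groups were lower than HIF2α-ko by −1.06 ± 0.14 and −1.07 ± 0.14 (adjusted p = 0.000304 and 8.13e-05). These 4 calls held under every alternative, and the dual knockout differed from HIF1α-ko by −0.01, with a 95% interval of −0.31 to 0.30.

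RFC4 (ENSG00000163918, chr3:186789880-186807058, minus strand) rose in the dual knockout, with 3.71, 2.23 and 2.62 TPM in vector, 3.38, 3.57 and 3.22 TPM in HIF1α-ko, 2.09, 2.17 and 2.47 TPM in HIF2α-ko, and 4.27, 3.78 and 5.12 TPM in the dual knockout. The dual knockout libraries lay above the other 9, by a narrow gap to vector replicate 1. The rise of 0.49 ± 0.17 against vector (adjusted p = 0.0302) was lost under both scalings (adjusted p = 0.124 and 0.240), in a fit of the 2 groups only (adjusted p = 0.110) and without vector replicate 2 or 3 or dual knockout replicate 3 (adjusted p = 0.0840 to 0.123), whereas the difference of 0.73 ± 0.17 from HIF2α-ko (adjusted p = 0.00409) held under every alternative that kept the gene. RFC1, the large subunit, averaged 11.1 ± 0.747 TPM in vector and 7.52 ± 1.12 TPM in the dual knockout and fell by −0.51 ± 0.18 (adjusted p = 0.0317), a call lost in a fit of the 2 groups only (adjusted p = 0.0662) and without vector replicate 1 or 3 or dual knockout replicate 1 or 3 (adjusted p = 0.0526 to 0.0898). RFC3 had 0.868 to 2.43 TPM and passed in no comparison.

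PCNA, the clamp itself, was named outside the rule for its spread, seen in the values. It had 14.6, 4.79 and 4.60 TPM in vector, 10.9, 9.77 and 10.3 TPM in HIF1α-ko, 9.29, 7.38 and 8.09 TPM in HIF2α-ko, and 11.3, 13.1 and 12.5 TPM in the dual knockout. Vector replicate 1 was the highest of all 12 libraries and vector replicates 2 and 3 were the lowest. With all libraries no difference from vector passed the threshold (0.50, 0.21 and 0.73, adjusted p = 0.242, 0.720 and 0.0685). Without vector replicate 1, the differences were 0.99, 0.69 and 1.22, and all passed (adjusted p = 0.000557, 0.00691 and 6.5e-05), so 1 library decided the call of PCNA in each knockout.

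**Figure D4:**
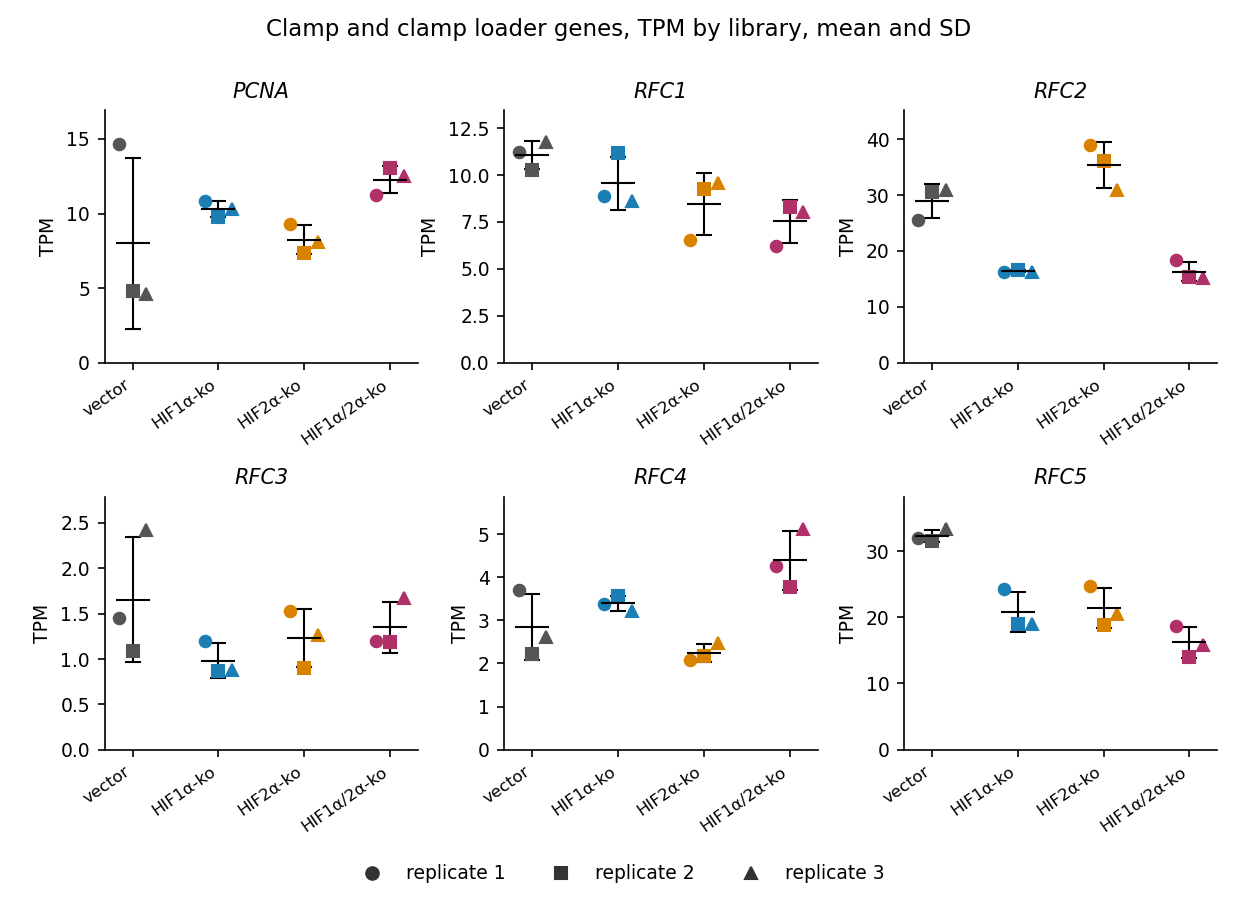
TPM of PCNA and of RFC1 to RFC5 in the 12 libraries, with 1 marker shape for each replicate number and a bar with whiskers for the mean and SD of each group of 3. RFC2 lies at 15.2 to 18.3 TPM in the groups with the HIF1α knockout and at 25.5 TPM or more in the others, and the vector mean of PCNA is drawn up by replicate 1 at 14.6 TPM.

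The single-strand binding proteins and the genes that join Okazaki fragments did not differ from vector in the main fit. There limma called 0 of 5 in any knockout, with 0 at an unadjusted p under 0.05. Without replicate 1 of every group, RPA1, LIG1 and FEN1 passed the threshold in the dual knockout and RPA1 in HIF1α-ko, all against vector. In the dual knockout RPA1 also passed without dual knockout replicate 1, and LIG1 with the replicate block. RPA2 (ENSG00000117748, chr1:27891524-27914746, minus strand), the middle subunit of the RPA trimer, had 22.9, 18.7 and 18.8 TPM in vector, 22.6, 22.9 and 19.8 TPM in HIF1α-ko, 18.6, 15.1 and 16.7 TPM in HIF2α-ko, and 25.4, 20.4 and 22 TPM in the dual knockout. Its dual knockout libraries lay above its HIF2α-ko libraries (0.41 ± 0.15, adjusted p = 0.0366), but the difference shrank to 0.12 and 0.10 under median ratio scaling and quantile normalization (adjusted p = 0.599 and 0.656). That call was also lost in a fit of the 2 groups only (adjusted p = 0.0505) and without HIF2α-ko replicate 2 or 3 or dual knockout replicate 1 or 3 (adjusted p = 0.0771 to 0.133). RPA1, the large subunit, ranged from 20.0 to 43.5 TPM, RPA3 from 7.54 to 18.5 TPM, the flap nuclease FEN1 from 2.26 to 5.34 TPM and the DNA ligase LIG1 from 4.96 to 10.2 TPM.

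All 4 nucleotide supply genes fell in the dual knockout, 2 of them fell in HIF1α-ko, and limma called 0 in HIF2α-ko, with 0 also at an unadjusted p under 0.05. TYMS (ENSG00000176890, chr18:657604-673578, plus strand), thymidylate synthase, had 74.9, 65.3 and 67.7 TPM in vector, 31.8, 14.3 and 14.2 TPM in HIF1α-ko, 73.0, 57.1 and 57.4 TPM in HIF2α-ko, and 35.3, 22.8 and 24.5 TPM in the dual knockout. The 6 libraries with the HIF1α knockout lay below the 6 others. TYMS fell by −1.84 ± 0.27 in HIF1α-ko (adjusted p = 0.000846) and −1.32 ± 0.27 in the dual knockout (adjusted p = 0.00157), and both lay below HIF2α-ko by −1.68 ± 0.27 and −1.17 ± 0.27 (adjusted p = 0.00104 and 0.00355). These 4 calls held under every alternative. The TYMS promoter holds 1 E2F match, 39 bases before the RefSeq start, at chr18:657603-657632 on the plus strand, shown with the match in capitals.
TYMS: gcgggacggccGCGGGAAAaggcgcgcgga

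RRM2 (ENSG00000171848, chr2:10120698-10131419, plus strand), the small subunit of ribonucleotide reductase whose level sets its activity in S phase, had 52.3, 28.6 and 29.9 TPM in vector, 19.6, 7.10 and 7.82 TPM in HIF1α-ko, 46.5, 18.4 and 19.0 TPM in HIF2α-ko, and 17.5, 8.23 and 9.25 TPM in the dual knockout. In each group replicate 1 was the highest library and the other two lay close together. RRM2 fell by −1.68 ± 0.43 in HIF1α-ko (adjusted p = 0.0146) and −1.60 ± 0.43 in the dual knockout (adjusted p = 0.00904), where the call held under every alternative. The call in HIF1α-ko was lost without HIF1α-ko replicate 2 or 3 (adjusted p = 0.0640 and 0.0638). The difference of −1.13 ± 0.43 between the dual knockout and HIF2α-ko (adjusted p = 0.0469) was lost under 8 alternatives and fell to −0.71 without HIF2α-ko replicate 1 (adjusted p = 0.200).

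RRM1 (ENSG00000167325, chr11:4094707-4138876, plus strand), the large subunit, fell in the dual knockout and was lower there than in each single knockout, with 31.9, 21.2 and 32.6 TPM in vector, 22.1, 26.1 and 24.2 TPM in HIF1α-ko, 22, 23.8 and 24.3 TPM in HIF2α-ko, and 15.5, 12.7 and 12.8 TPM in the dual knockout. The dual knockout libraries lay below the other 9. Its log2 fold change was −0.99 ± 0.17 against vector (adjusted p = 0.000511), −0.78 ± 0.17 against HIF1α-ko (adjusted p = 0.00510) and −0.74 ± 0.17 against HIF2α-ko (adjusted p = 0.00370), and these calls held under every alternative. The interaction term, −0.52 ± 0.24, did not pass the threshold (adjusted p = 0.139).

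TK1, cytosolic thymidine kinase, averaged 71.9 ± 14.0 TPM in vector, 39.7 ± 22.6 TPM in HIF1α-ko, 99.2 ± 32.6 TPM in HIF2α-ko and 33.6 ± 9.32 TPM in the dual knockout (n = 3 each). It fell by −1.09 ± 0.33 in the dual knockout (adjusted p = 0.0174), a call lost without vector replicate 1 or dual knockout replicate 2 or 3 (adjusted p = 0.0603, 0.0672 and 0.0550), and in HIF1α-ko the difference of −0.96 ± 0.33 fell just short (adjusted p = 0.0513). Against HIF2α-ko it was lower by −1.52 ± 0.33 in the dual knockout (adjusted p = 0.00275), under every alternative, and by −1.39 ± 0.33 in HIF1α-ko (adjusted p = 0.0109, lost without HIF1α-ko replicate 2 or 3 or HIF2α-ko replicate 1).

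**Figure D5:**
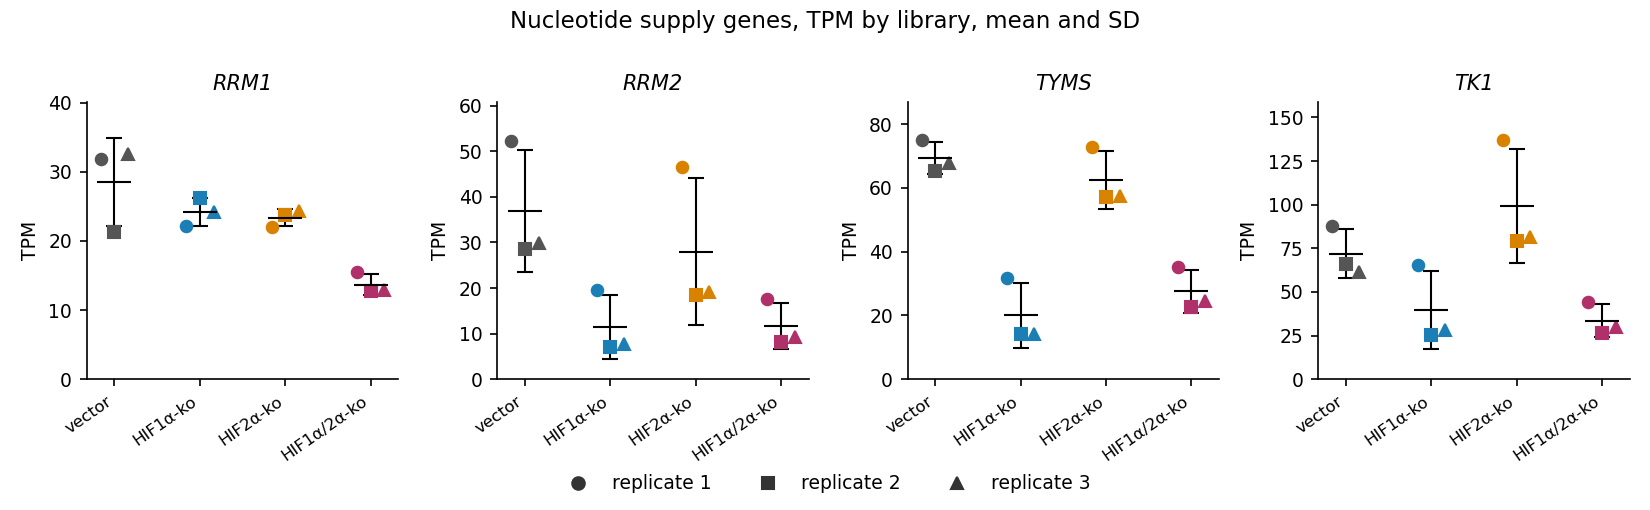
TPM of RRM1, RRM2, TYMS and TK1 in the 12 libraries, with 1 marker shape for each replicate number and a bar with whiskers for the mean and SD of each group of 3. TYMS lies at 14.2 to 35.3 TPM in the groups with the HIF1α knockout and at 57.1 TPM or more in the others, and RRM1 is lowest in the dual knockout, at 12.7 to 15.5 TPM.

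Of the genes for chromatin behind the fork, CHAF1A and CHAF1B, subunits of the histone chaperone CAF-1, and UHRF1, which brings the maintenance DNA methyltransferase to new DNA, 0 of 3 were called by limma in any comparison of the main fit. At an unadjusted p under 0.05 both CAF-1 subunits were lower in HIF1α-ko and in HIF2α-ko CHAF1A was lower in the dual knockout, and CHAF1B had a positive interaction term. CHAF1B averaged 1.52 ± 0.122 TPM in vector and 0.934 ± 0.00725, 0.862 ± 0.191 and 1.07 ± 0.249 TPM in HIF1α-ko, HIF2α-ko and the dual knockout (adjusted p = 0.0653, 0.0667 and 0.108). CHAF1A averaged 7.69 ± 1.26 TPM in vector and 4.54 ± 2.07, 4.42 ± 0.977 and 4.59 ± 1.72 TPM in the knockouts, in the same order. UHRF1 had 4.14, 1.48 and 1.10 TPM in vector, again with replicate 1 on top.

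Comparing the knockouts with each other, 3 members fell and 2 rose from HIF1α-ko to the dual knockout, which were 6.98% and 4.65% of the tested members beside 10.6% and 17.7% of all genes tested. From HIF2α-ko to the dual knockout 7 fell and 6 rose, 16.3% and 14% beside 12.9% and 33.5%. Under median ratio scaling these became 11 and 3 and under quantile normalization 10 and 3, which raised the share of falls among the calls from 53.8% to 78.6% and 76.9%, while over all genes tested it went from 27.7% to 49.1% and 48.9%. In HIF1α-ko against HIF2α-ko 3 were lower (RFC2, TYMS and TK1) and 1 higher (MCM6), 6.98% and 2.33% beside 7.37% and 17.8%, and the interaction term was called lower for GMNN and higher for ORC6, 2.33% each beside 7.35% and 13.2%. The shares of members called lower in these comparisons lay near or below those of all genes, apart from the dual knockout against HIF2α-ko.

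The replicate numbers of the 3 knockout groups were taken to pair their libraries. That pairing was read from the same values and not tested apart from them. The same comparisons were fitted with the replicate block on these groups only. With it, 6 members were lower and 5 higher in the dual knockout than in HIF1α-ko, 9 lower and 9 higher than in HIF2α-ko. HIF1α-ko had 7 lower and 9 higher than HIF2α-ko. In shares these were 14% and 11.6%, 20.9% and 20.9%, and 16.3% and 20.9% of the tested members, beside 19.5% and 29%, 19% and 43.6%, and 12.7% and 37.8% of all genes in the same fit, so calls were gained among all genes too. Of members called in no comparison of the main fit, GINS3 was higher (adjusted p = 0.0381) and LIG1 lower (adjusted p = 0.0412) in the dual knockout than in HIF1α-ko, CDC45, PCNA and RPA1 were higher in the dual knockout than in HIF2α-ko (adjusted p = 0.0451, 0.00511 and 0.0239), and ORC2, MCM3 and RPA1 were higher in HIF1α-ko than in HIF2α-ko (adjusted p = 0.0384, 0.0404 and 0.0297). Among the calls gained in HIF1α-ko against HIF2α-ko were RRM2 (adjusted p = 0.00019), ORC1 (adjusted p = 0.026) and GMNN (adjusted p = 0.019), all lower, and ORC5 (adjusted p = 0.014), PRIM2 (adjusted p = 0.022) and RFC4 (adjusted p = 0.019), all higher. No call of the main fit was lost with the block.

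Beside the members, 58 other genes of replication were listed, of which 47 were tested, and in the dual knockout 8 fell and 18 rose, 17% and 38.3%, shares near the 14.8% and 31.8% of all genes tested. The falls with the smallest p were those of TICRR, needed for origin firing (−1.27 ± 0.15, adjusted p = 4.21e-05), the decatenating topoisomerase TOP2A (−1.31 ± 0.24, adjusted p = 0.000916), the S phase cyclin CCNA2 (−1.25 ± 0.28, adjusted p = 0.00299) and the checkpoint activator TOPBP1 (−0.75 ± 0.17, adjusted p = 0.00378). TICRR, like TYMS and RFC2, was low in both groups with the HIF1α knockout, at 1.23 to 1.69 TPM, and lay at 4.43 to 6.25 TPM in the others.

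The largest rises by p were those of E2F4 and E2F6, E2F family members known mainly as repressors, of CCNE1, a cyclin of S phase entry, and of CTPS1, which makes CTP. E2F4 averaged 26.4 ± 8.83 TPM in vector and 98.2 ± 12.6 TPM in the dual knockout (1.90 ± 0.20, adjusted p = 1.93e-05), and E2F6 1.14 ± 0.0600 and 8.52 ± 2.43 TPM (2.12 ± 0.23, adjusted p = 2.01e-05). CCNE1 averaged 0.632 ± 0.230 and 5.74 ± 0.809 TPM (2.05 ± 0.23, adjusted p = 2.71e-05) and CTPS1 1.79 ± 0.571 and 8.01 ± 2.18 TPM (1.68 ± 0.22, adjusted p = 8.2e-05). The dual knockout libraries of all 4 genes lay above those of every other group.

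RRM2B, the ribonucleotide reductase subunit used outside S phase, moved opposite to RRM2 in the dual knockout, from 2.25 ± 0.284 TPM in vector to 6.61 ± 2.02 TPM (1.19 ± 0.21, adjusted p = 0.000684). CDKN1A, the cyclin-dependent kinase inhibitor of the G1 arrest, had 144, 173 and 163 TPM in vector and 472, 193 and 489 TPM in the dual knockout (1.15 ± 0.27, adjusted p = 0.00423), with replicate 2 close to the single knockouts. E2F1, the E2F that drives many members, had 8.74 to 21.2 TPM over the 12 libraries and did not pass the threshold in any comparison, and its log2 fold change in the dual knockout was −0.21 ± 0.32, with a 95% interval of −0.90 to 0.49.

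RefSeq promoters, 250 bases before to 50 bases after the RefSeq start, were found for 42 of the 48 members. The E2F letters named with CDT1 stood in 19 of the 42, 45.2%, beside 3.33% of all 27305 promoters and 5.24% of the 9439 promoters of genes tested. Among the members that fell in the dual knockout 3 of 13 held a match (CDT1, MCM2 and TYMS), among those that rose 2 of 4 (MCM6 and MCM7), and among the tested members that were not called 11 of 21. The CCAAT box stood in 57.1% of the members' promoters and 36.5% of those of genes tested, and the hypoxia response core, ACGTG or GCGTG on either strand, in 76.2% and 63.4%. A match is a description of letters and not a bound site. In some of the 42 the RefSeq start lay far downstream of the outer GENCODE end. The distance was 97391 bases for GINS3, 6421 for UHRF1, 3115 for RFC5, 2041 for RRM2 and 1119 for GINS2.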

How the data were processed

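Gene levels of 12 U87 libraries were taken from 1 table in which the authors deposited TPM values for 20263 genes. Total RNA was taken up in Trizol and libraries were made with a VAHTS mRNA-seq V2 kit, and the submitters' processing notes name FastQC 0.11.2, Trimmomatic 0.36, HISAT2 2.0, bedtools 2.26.0 and GRCh38. The read counter and annotation are not given in the sources used here. TPM is a share, so a rise in a few abundant genes lowers the others, and it keeps no depth, so counting error is unknown. The columns of the vector group carry no knockout code and were assigned to it by that. Gene positions come from GENCODE v29.

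Values were tested as log2(TPM + 1) with limma 3.58.1 in R 4.3.3, with an intensity trend, 4 groups in 1 model, genes that reached 1 TPM in 3 or more libraries, and Benjamini-Hochberg adjustment within each of 7 comparisons. The fit was tested on simulated data. All members are named, and values in every library are given, in each role, for up to 3 members of smallest p in the dual knockout against vector among those called in at least 1 comparison, and for called members that moved opposite to most of their role. Of the other replication genes, the 4 with the smallest p in each direction were named, plus CDKN1A, RRM2B and E2F1. The members and lists were chosen with earlier results of these data known, so nothing here is an independent test of them. Alternatives were pseudocounts, filters, scalings, fits of 2 groups, the replicate block and leaving out each library.

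Same-numbered libraries of the 3 knockout groups deviated together (r = 0.463 to 0.508 for number 1, 0.227 to 0.250 for number 2 and 0.196 to 0.222 for number 3), so their numbers were taken to pair them, from the values alone. Deviations from a mean of 3 cancel out, so a pattern shared by the number 1 libraries tends to make r positive for numbers 2 and 3. Libraries of unlike number were not compared, so r cannot show that numbers 2 and 3 are paired. Between vector and the knockouts r was −0.0265 to 0.163, and these were not taken as paired.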

Additional observations from a re-analysis of the deposited data

Results flagged for a closer look

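By the interaction test of limma the change in HIF1α/2α-ko differed from the sum of the changes in both single knockouts for 2 of 43 tested members (1 lower, 1 higher) and 14 of 47 other replication genes (3 lower, 11 higher), beside 7.35% lower and 13.2% higher of all genes tested. The 8 of these genes that are named are given here, and no cause was tested. Among the members these were GMNN, with an interaction term of −1.04 on the log2 scale (adjusted p = 0.0455), and ORC6, with 1.32 (adjusted p = 0.0234). Among the other replication genes named, TOP2A had 1.26 (adjusted p = 0.0236) and CCNA2 1.58 (adjusted p = 0.0160), 2 genes that fell in all 3 knockouts, so the fall in the dual knockout was smaller than the sum of both. The term was 1.20 for E2F6 (adjusted p = 0.0213), 1.58 for CCNE1 (adjusted p = 0.00621), 0.94 for E2F4 (adjusted p = 0.0358) and 1.74 for CTPS1 (adjusted p = 0.00336), 4 genes that rose in HIF1α/2α-ko.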

How the results depend on the processing

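Counts of members are given as lower or higher by limma at an adjusted p under 0.05. The replicate block on all groups also pairs vector, which was not taken as paired. That limits its counts against vector and for the interaction. With that block 27.9% of the members were lower in HIF1α-ko and 16.3% in HIF2α-ko against vector, beside 11% and 10% of all genes. In HIF1α-ko against vector the 6 lower became 10 under median ratio scaling, 11 under quantile normalization, 12 with the replicate block, 14 without replicate 1 of every group (chosen after seeing the data) and 2 to 9 leaving out single libraries, and the 1 higher became 0 with no filter, with a mean TPM of at least 5 or with 2 groups only, 7 without replicate 1 of every group and 0 to 2 leaving out single libraries. In HIF2α-ko the 2 lower became 1 with a mean TPM of at least 5, 0 under both scalings and with 2 groups only, 7 with the replicate block, 11 without replicate 1 of every group and 0 to 3 leaving out single libraries, and the 0 higher became 2 without replicate 1 of every group and 0 to 1 leaving out single libraries. In HIF1α/2α-ko the 4 higher became 1 with a mean TPM of at least 5, 2 under both scalings and with 2 groups only, 10 without replicate 1 of every group and 1 to 5 leaving out single libraries, while the 13 lower stayed at 9 to 14 leaving out single libraries. There the median of the members less that of all genes tested moved from −0.36 to −0.73 with a mean TPM of at least 5, where fewer genes were tested.

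In HIF1α/2α-ko against HIF1α-ko the 3 lower became 5 with the replicate block, 6 with it on the knockouts only and 6 without replicate 1 of every group, and the 2 higher became 1 under median ratio scaling, 4 with the replicate block, 5 with it on the knockouts only, 7 without replicate 1 of every group and 1 to 3 leaving out single libraries. In HIF1α/2α-ko against HIF2α-ko the 7 lower became 11 under median ratio scaling, and the 6 higher became 2 with a mean TPM of at least 5, 3 under each scaling and 15 without replicate 1 of every group. In HIF1α-ko against HIF2α-ko the 3 lower became 5 with the replicate block, 7 with it on the knockouts only, 7 without replicate 1 of every group and 2 to 6 leaving out single libraries, and the 1 higher became 0 with a mean TPM of at least 5, 3 with 2 groups only, 2 with the replicate block, 9 with it on the knockouts only, 10 without replicate 1 of every group and 1 to 3 leaving out single libraries. For the interaction the 1 lower became 0 with no filter, 2 under quantile normalization, 2 without replicate 1 of every group and 0 to 1 leaving out single libraries, and the 1 higher became 2 with no filter, 0 with a mean TPM of at least 5, 2 with the replicate block, 10 without replicate 1 of every group and 0 to 3 leaving out single libraries. The cause of these moves was not tested beyond the fewer genes or libraries of some fits. Without replicate 1, 14% of the members were lower and 16.3% higher in HIF1α/2α-ko against HIF1α-ko, beside 16.1% and 28.8% of all genes. In HIF1α/2α-ko against HIF2α-ko these shares were 20.9% and 34.9% beside 17.6% and 43.2%. In HIF1α-ko against HIF2α-ko they were 16.3% and 23.3% beside 13% and 34.1%. For the interaction they were 4.65% and 23.3% beside 18.3% and 24.7%. No called member reversed its direction under the alternatives run, and no call was lost with the replicate block. With that block on all groups, 11.6% were lower and 9.3% higher in HIF1α/2α-ko against HIF1α-ko, beside 13.3% and 21.5% of all genes. In HIF1α-ko against HIF2α-ko these shares were 11.6% and 4.65% beside 9.21% and 24.8%. For the interaction 4.65% were higher beside 18.1%. Depth is unknown, so no limit from counting can be given for the 5 members below the filter.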
